A study of Mus musculus with 22 samples.

Results

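Among 14 mouse brains taken at embryonic day 15 (E15), 3 gave far more signal for Col1a1, the gene of the main chain of type I collagen, than the other 11. These 3 animals were selected on their measured Col1a1 values: channels of the E15 arrays were averaged per animal, and the 3 highest animals at the Col1a1 probe of highest mean signal formed the high group. The series holds 22 animals in all, 14 at E15 and 8 at postnatal day 1 (P1), where the labels do not number the controls and the control read with each knockout replicate was counted as 1 animal. At E15 there were 6 control animals, called C1 to C6 here by their control number, and 8 animals with a knockout of Agtr2, called KO1 to KO8 by their replicate number. The high group was C1, KO8 and C2, that is 2 controls and 1 knockout, and the low group was the other 4 controls and 7 knockouts. The labels give whole brain, from frozen slices, as the source of all of these RNAs, and state neither strain nor sex nor how the knockout allele was made. Each array compared 1 knockout with 1 control in 2 dyes, and 12 of the 14 E15 animals were read in more than 1 channel. KO3 and KO4 were each read in 1 channel. Because Col1a1 chose the groups, a difference in another gene says only that its level went with Col1a1 over these 14 animals.

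Type I collagen is made of chains from Col1a1 and Col1a2, and is laid down by fibroblasts and bone-forming cells with type III and type V collagen in the same fibrils. Brain tissue holds little of it. In the embryonic head it belongs to the meninges, which wrap the brain, and to the dermis, the forming skull bones and the sheaths of muscle outside them. A whole-brain sample can therefore hold connective tissue genes through its own meninges or through tissue taken along with it, and each of these tissues has marker genes of its own.

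The promoters of 4 genes that stood far higher in the 3 animals are shown, because they belong to different tissues of the head: Col1a2 to connective tissue, Ibsp to bone, and Acta1 and Myh3 to skeletal muscle. Each is the 250 bases before the annotated start, read on the gene's strand from RefSeq (GRCm38.p6). Capitals mark the CCAAT box by its letters CCAAT, the TATA box by the letters TATAAA, and the CArG box that serum response factor binds, each searched on both strands.
Col1a2, chr6:4505368-4505617, plus strand: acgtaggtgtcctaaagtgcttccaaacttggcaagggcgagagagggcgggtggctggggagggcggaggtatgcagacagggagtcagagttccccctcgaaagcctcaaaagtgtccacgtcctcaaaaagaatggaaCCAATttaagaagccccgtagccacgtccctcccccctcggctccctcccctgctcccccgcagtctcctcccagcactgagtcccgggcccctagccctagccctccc
Ibsp, chr5:104299037-104299286, plus strand: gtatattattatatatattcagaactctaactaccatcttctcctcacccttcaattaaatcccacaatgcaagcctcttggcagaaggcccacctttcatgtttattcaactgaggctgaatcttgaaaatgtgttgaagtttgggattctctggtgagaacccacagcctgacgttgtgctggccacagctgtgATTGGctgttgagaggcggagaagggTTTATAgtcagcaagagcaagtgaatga
Acta1, chr8:123894776-123895025, minus strand: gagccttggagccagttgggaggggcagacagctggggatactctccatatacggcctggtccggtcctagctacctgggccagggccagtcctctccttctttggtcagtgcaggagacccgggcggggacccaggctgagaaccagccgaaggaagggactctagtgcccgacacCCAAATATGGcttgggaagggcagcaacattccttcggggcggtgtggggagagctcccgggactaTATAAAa
Myh3, chr11:67078050-67078299, plus strand: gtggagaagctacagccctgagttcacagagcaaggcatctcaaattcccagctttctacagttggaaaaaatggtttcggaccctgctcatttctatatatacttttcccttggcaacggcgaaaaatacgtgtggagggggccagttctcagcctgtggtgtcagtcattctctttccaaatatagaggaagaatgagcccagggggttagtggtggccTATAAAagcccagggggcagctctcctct
Col1a2 held 1 CCAAT box and no TATA box. Ibsp held 1 of each. Acta1 and Myh3 each held 1 match to the TATA letters, 7 bases before the annotated start in Acta1 and 29 in Myh3. In the Acta1 promoter 1 CArG box lay 73 bases before the start. Over all 27025 RefSeq promoters of this length, 34.5% held a CCAAT box, 13.0% a TATA box and 1.4% a CArG box. Of the 272 genes with a higher call and a promoter in the table, 36.4% held a CCAAT box and 15.1% a TATA box, beside 36.0% and 10.5% of all 14022 tested genes with one. The E-box CANNTG, the letters that myogenic factors such as myogenin bind, was in 66.0% of all promoters and in 60.5% of those of tested genes. It was in 59.2% of those of genes called higher, and in 16 of 17 promoters of the skeletal muscle genes called higher. Of the same 17 promoters, 5 held a TATA box, 4 a CCAAT box and 1 a CArG box. The muscle genes were picked by their calls, and these shares were not tested.

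The Col1a1 signal, on a log2 scale after background correction and normalization, was 14.57 in C1, 14.32 in KO8 and 13.58 in C2. The next animal, just outside the high group, was the control C5 at 11.18, followed by KO7 at 10.70, and the lowest was KO6 at 9.22. C2 was thus the animal just inside the boundary, and its value came from 1 of its 2 channels because the scanner software marked the spot of its other array as an outlier. A second, dimmer Col1a1 probe gave 10.20 in KO8, 8.98 in C1, 7.63 in C5 and 7.48 in C2, so C2 and C5 changed places on it. These values define the groups and were not tested.

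Agtr2, the receptor gene that the knockouts lack, was measured in every animal. It was 9.20 in the control C1, and no other animal exceeded 7.08, the value of the knockout KO8. The other controls lay at 6.98 in C5, 6.76 in C2, 6.27 in C4, 6.23 in C6 and 6.13 in C3. The knockouts lay between 6.21 in KO2 and 7.08 in KO8. C1 thus lay above every knockout, C3 below every knockout and the other 4 controls within the knockout range. The 2 Agtr2 channels of KO1 were 7.07 in Cy3 beside C1 and 6.17 in Cy5 beside C6. KO4 at 6.91 was read only beside C1, and KO3 at 6.71 only beside C2. Where the probe lies relative to the deleted part is not given in the sources used here, so it does not check the genotype labels. The high minus low difference of Agtr2 was 1.19 (SE 0.36) with an adjusted p of 0.152 in the limma fit, which is not a call.

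Between 74.9% and 89.3% of the spots of an E15 array were well above background. The arrays were scanned on 3 days, with 2, 6 and 6 arrays. C1 and C2 were scanned only on day 3 with KO1 to KO4, and KO8 only on days 1 and 2. The first principal component of all tested features, 34.9% of the variance, put the 6 animals scanned on day 3 alone at -21.7 or below and the others at -0.50 or above. The second, 17.8%, held C1 at 41.9 and KO8 at 43.0, with C2 at 5.25 and every low animal at 5.36 or below. Neuronal genes were bright in all animals, for example Tubb3, a neuronal tubulin, at 12.13 to 13.43. Values within single scan days are given further on.

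**Figure D1:**
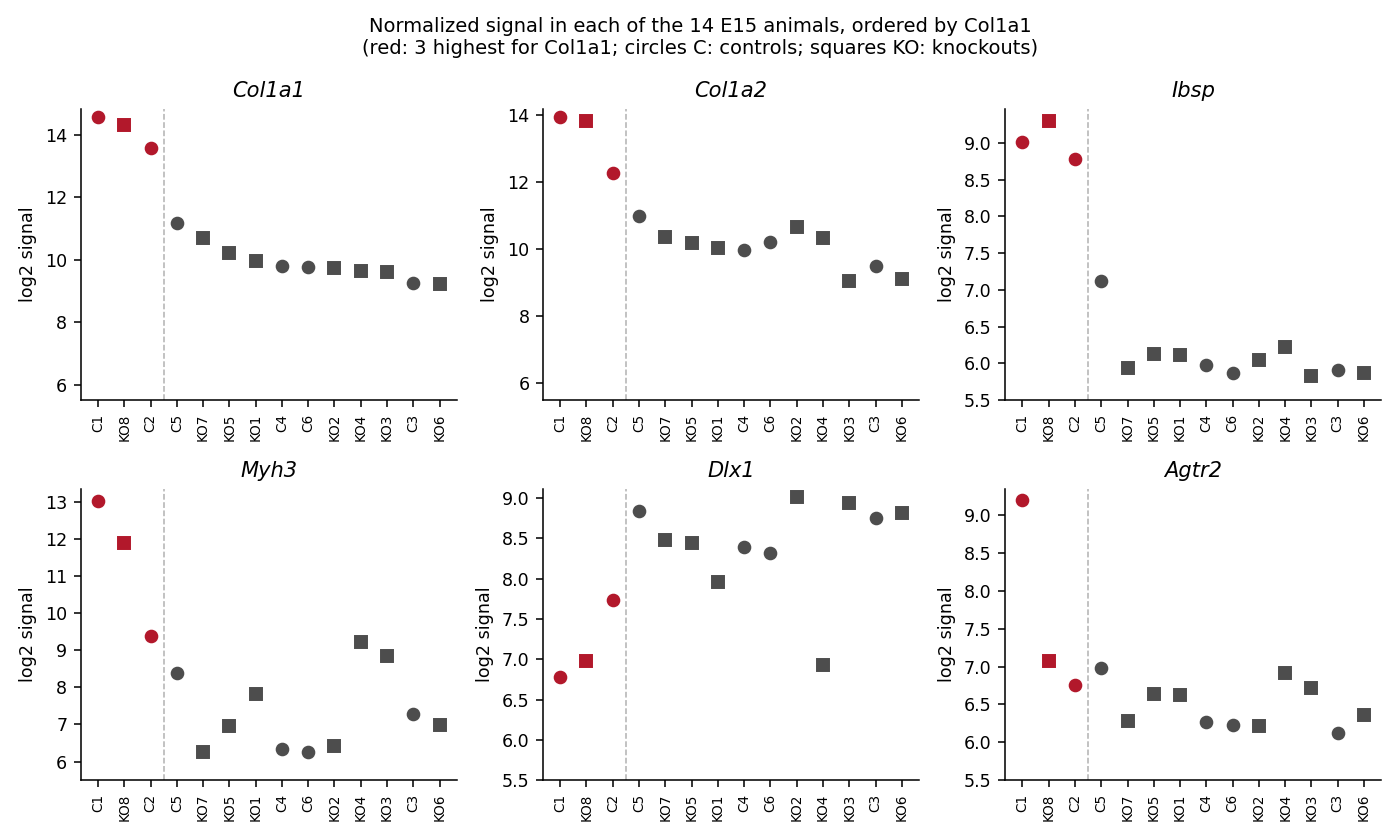
Normalized log2 signal of 6 genes in each of the 14 E15 animals, ordered from left to right by Col1a1; red marks the 3 high animals, circles controls and squares knockouts. Col1a1, Col1a2 and Ibsp separate the 3 red animals from the rest, Dlx1 is lowest in C1, KO8 and the low animal KO4, and Agtr2 stands out in C1 alone.

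The 3 animals carried more signal for matrix, bone and muscle genes, and few genes were lower in them. Of 24084 features tested besides Col1a1, 384 were higher in the high group, which is 1.59% of all features, and 21 were lower, which is 0.0872% (limma, Benjamini-Hochberg adjusted p under 0.05). The counts of calls in each gene list below stand beside these shares. The groups did not overlap, with all 3 high animals above all 11 low ones, for 315 features (1.31%), and with all 3 below for 71 (0.295%). Among the called features, 196 of the higher ones differed by more than 1 log2 unit and 43 by more than 2, while no lower one reached 1. The median difference over all features was -0.02, and 43.7% of features were above 0. The count of higher calls was 84 without C1, 80 without KO8 and 872 without C2, and 81, 78 and 381 of the 384 were among these. The lower calls were 5, 10 and 91. With animals linked by shared arrays as a replicate block there were 304 higher calls, of which 256 were among the 384, and 41 lower. Of 65 named genes called here, 14 lost the call in that fit (adjusted p from 0.0526 to 0.126): the growth factor gene Igf2, the muscle genes Myog, Myl1 and Tnnc2, the bone factor Runx2, the protease inhibitor Timp3, and Foxd1, Epcam, Aqp1, Pdxp, 4930402H24Rik, Klhl35, Marchf9 and Prkar2b. With genotype as a term 7 lost it (0.0557 to 0.0864): Myog, Tnnc2, Epcam, Aqp1, Tgfbi, 4930402H24Rik and Marchf9. In all, 67 of the higher calls and 4 of the lower held whichever of the 14 animals was left out.

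Of the named features, the ones furthest apart with no overlap were Myh3, Mylpf, Col1a2, Acta1, Postn, Tnnt1, Col16a1, Ibsp, Apobec2 and Myom2. They comprise 6 muscle genes, 2 collagens, the matrix protein periostin and the bone sialoprotein gene Ibsp. Taking 2 or 4 animals as the high group in place of 3 gave 901 and 85 higher calls. In bulk tissue, more cells of a type and more RNA per cell cannot be told apart.

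**Figure D2:**
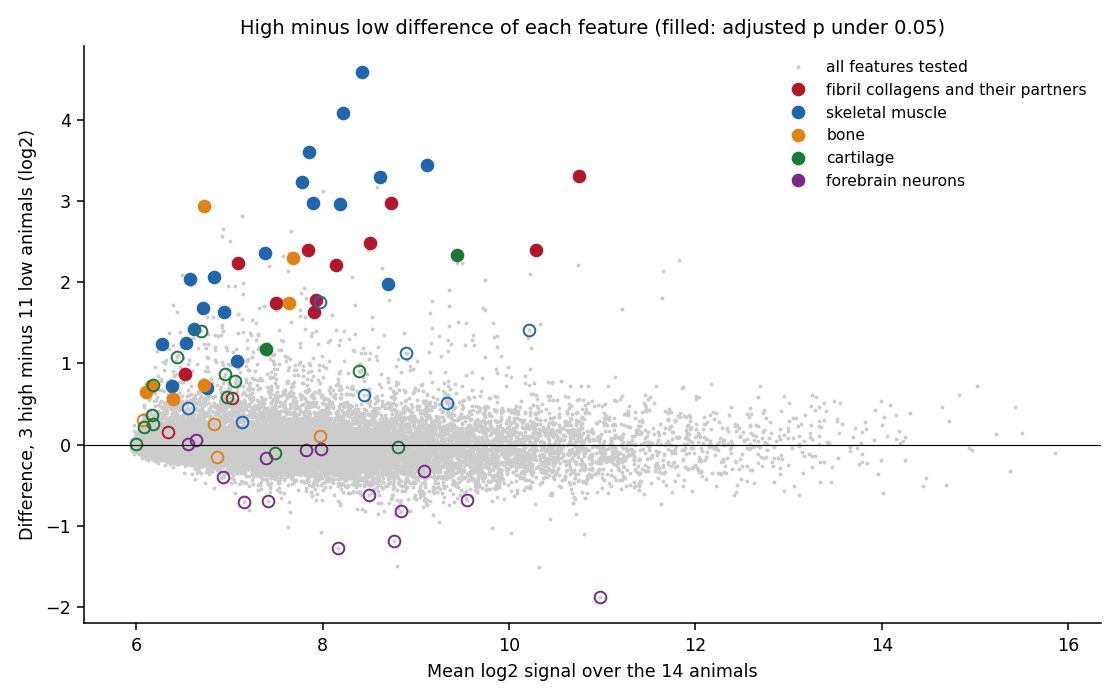
Difference between the 3 high and the 11 low animals (vertical axis, log2) against the mean log2 signal (horizontal axis) of every tested feature; coloured circles are members of 5 gene lists, filled where the adjusted p was under 0.05. Collagen and muscle genes lie highest, up to 4.59 for Myl1, and 13 of the 15 forebrain genes lie below 0, without a call.

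Collagens of the fibrils and their partners were higher as a group. Of 14 genes on the list besides Col1a1, 13 passed the signal filter, 11 were called higher and none lower, and the median difference was 2.21. The member left out by the filter was Col12a1, well above background in every channel of the high animals. Col1a2, the partner chain of Col1a1, was 13.95 in C1, 13.83 in KO8 and 12.27 in C2, and the low animals ranged from 9.05 to 10.99 with a median of 10.18. All 3 high animals lay above C5, the highest low animal, at a difference of 3.31 (SE 0.40) and an adjusted p of 0.00152. Col16a1, a fibril-associated collagen, was 11.44 in C1, 11.54 in KO8 and 10.25 in C2, against a low range from 7.66 to 9.21 with a median of 7.97. Its difference was 2.97 (SE 0.29) with an adjusted p of 0.000362. Col5a1, which starts type I fibrils, differed by 2.49 (SE 0.27) with an adjusted p of 0.000793. Col8a2, a short-chain collagen, was 10.74 in KO8 and 8.51 in C2, only just above C5 at 8.41. Its call (adjusted p of 0.00578) was lost without C1, at 0.0619, and without KO8, at 0.067. Each animal's median over the list, taken as its distance from the mean of the low animals, was 3.02 in KO8, 1.94 in C1 and 1.04 in C2. C5 followed at 0.70, and the other 10 low animals were at 0.12 or below. By this median, which leaves out Col1a1, KO8 stood above C1. Col1a1 (14.57 and 14.32) and Col1a2 (13.95 and 13.83) were slightly higher in C1 than in KO8, and the 2 animals shared no scan day.

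Matrix glycoproteins and proteoglycans, which bind and space the fibrils, followed the collagens. All 23 genes were tested, all 23 lay above 0, 12 were called higher and the median difference was 1.25. Postn, periostin, was 11.82 in C1, 11.81 in KO8 and 9.58 in C2, and the low animals ranged from 7.29 to 9.08 with a median of 7.83. The difference was 3.17 (SE 0.43) with an adjusted p of 0.00279. Lum, the proteoglycan lumican, differed by 2.18 (SE 0.27) (adjusted p of 0.00152), Aspn, asporin, by 2.09 (SE 0.24) (0.00126) and Mgp, matrix Gla protein, by 1.99 (SE 0.35) (0.00913). Mgp and Aspn separated C2 from the low animals narrowly: Aspn was 7.17 in C2 and 6.57 in C5. Dcn, decorin, went with KO8 at 11.09 and C1 at 10.84 but not with C2, which at 8.52 was the lowest of the 14 animals, just under KO3 at 8.53. Its difference was 1.25 (SE 0.39) with an adjusted p of 0.176, not a call.

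Genes that fold, cut and cross-link collagen chains were above 0 in 22 of 22 tested members, and 10 were called higher, with a median difference of 0.68. Serpinh1, the collagen chaperone, was 14.11 in C1, 13.82 in KO8 and 12.89 in C2, against a low range from 10.53 to 12.35 with a median of 11.25, at a difference of 2.28 (SE 0.34). Its adjusted p was 0.00426, and 0.052 without C1. Pcolce, which aids the removal of the collagen propeptide, differed by 1.95 (SE 0.32), P4ha2, a prolyl hydroxylase subunit, by 1.69 (SE 0.26), and Fkbp10, a collagen chaperone, by 1.72 (SE 0.35). These 3 were called, with adjusted p of 0.00657, 0.00469 and 0.0215, and lost the call without C1 (0.0536, 0.0586 and 0.201) and without KO8 (0.0798, 0.058 and 0.163). Of 14 tested matrix proteases and inhibitors, 5 were called higher and none lower. Mmp14, a membrane-bound collagenase, differed by 1.19 (SE 0.16) (adjusted p of 0.00267) and Ctsk, the osteoclast protease cathepsin K, by 1.16 (SE 0.16) (0.00284). Basement membrane genes gave 2 calls in 14, for Lamb1 at 1.30 (SE 0.24) and Nid1 at 0.89 (SE 0.20). Their adjusted p of 0.0129 and 0.0399 rose to 0.148 and 0.394 without C1, and to 0.124 and 0.28 without KO8. The call of Nid1 was also lost without any of 9 low animals, all but KO4 and KO7 (adjusted p from 0.052 to 0.0669). Col4a1, the main vessel and pial collagen, was not called at 0.68 (SE 0.30) (adjusted p of 0.486).

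Fetal growth genes were also higher. Of 18 tested members of the IGF axis and imprinted growth genes, 11 were called higher and none lower, with a median difference of 1.24. Dlk1, a paternally expressed inhibitor of differentiation, was 13.75 in C1, 12.31 in KO8 and 11.38 in C2, and the low animals ranged from 9.73 to 11.08 with a median of 10.04. It differed by 2.21 (SE 0.39) with an adjusted p of 0.00886, which was 0.0772 without C1 and 0.0606 without KO8. Cdkn1c, a maternally expressed growth inhibitor, differed by 2.14 (SE 0.40) (adjusted p of 0.0135) and Igfbp5, an IGF-binding protein, by 1.76 (SE 0.29) (0.00667). Without C1 they had adjusted p of 0.158 and 0.072, and without KO8 of 0.129 and 0.0738. Igf2, the fetal growth factor, was 13.89 in C1 and 13.62 in KO8, but 11.67 in C2, inside the low range that reached 12.16 in KO4. Its call, 1.81 (SE 0.39) with an adjusted p of 0.0284, was lost when any of C1, KO8, KO5, C6 or C3 was left out (adjusted p from 0.0501 to 0.318). Of 22 tested TGF-beta and BMP genes, 3 were called higher. Tgfb3, a growth factor that drives matrix production, differed by 1.16 (SE 0.18) with an adjusted p of 0.00486, and Tgfbi, a matrix protein induced by it, by 1.87 (SE 0.41) (0.0311). The call of Tgfbi was lost without C1, at 0.319, without KO8, at 0.244, and without KO1, KO5, KO6, C3, C4 or C6 (0.0501 to 0.0548). In C2 Tgfbi was 7.77, below C5 at 8.41.

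Skeletal muscle genes held the largest difference of a single called gene, whereas their list median was below that of the fibril collagens. Of 27 tested genes, all 27 lay above 0, 20 were called higher and none lower, and the median difference was 1.68. Myh3, the embryonic myosin heavy chain, was 13.01 in C1, 11.89 in KO8 and 9.37 in C2, and the low animals ranged from 6.25 to 9.22 with a median of 6.98. The 3 high animals lay above all low ones, but C2 exceeded KO4 by little, at 9.37 against 9.22. The difference was 4.08 (SE 0.74) with an adjusted p of 0.011, which was 0.139 without C1 and 0.0956 without KO8. Acta1, skeletal alpha-actin, was 11.50 in C1, 10.77 in KO8 and 8.70 in C2, with a low range from 6.34 to 8.46 with a median of 6.83. Its adjusted p of 0.00666 became 0.0841 without C1 and 0.0741 without KO8. Myl1, a fast myosin light chain, had the largest difference of the list, 4.59 (SE 0.93) (adjusted p of 0.0203), but C2 at 9.98 lay below KO4 at 10.12. Without C1 its adjusted p was 0.233 and without KO8 0.142. Tnnt1, slow troponin T, at 2.97 (SE 0.45), and Apobec2, a muscle protein of the deaminase family, at 2.82 (SE 0.42), kept their calls with each animal left out. Myog, the muscle differentiation factor myogenin, was higher by 1.97 (SE 0.46) with an adjusted p of 0.047, and lost the call without C1, at 0.444, without KO8, at 0.122, and without any of 8 low animals, all but KO1, KO3 and KO4 (0.0661 to 0.079). The list median by animal was 2.79 in C1, 1.90 in KO8 and 0.73 in C2. Among the low animals it reached 0.41 in KO4, 0.35 in C5 and 0.31 in KO3. By these medians C1 led for muscle and KO8 for fibril collagen, but C1 and KO8 shared no scan day. Log2 ratios over the low partners on the same arrays gave another order for several muscle genes. They were larger in KO8 than in C1 for Myh3 (4.07 and 3.79), Acta1 (3.65 and 3.02), Myl1 (4.75 and 3.57), Mylpf, Tnnc2 and Tnnt1. For Myog the ratio was larger in C1 (2.66) than in KO8 (2.08). The order of the 2 animals was not tested.

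Bone genes separated the high from the low animals. Ibsp, bone sialoprotein, was 9.01 in C1, 9.29 in KO8 and 8.78 in C2, and 10 low animals lay between 5.84 and 6.22, with C5 at 7.12. Its difference of 2.94 (SE 0.21) had the lowest adjusted p of all features, 2.22e-05. Spp1, osteopontin, was 9.70 in C1, 9.67 in KO8 and 9.09 in C2, with a low range from 6.68 to 7.66 with a median of 7.08, and differed by 2.30 (SE 0.20) (adjusted p of 0.000166). Alpl, the alkaline phosphatase of mineralizing cells, differed by 1.75 (SE 0.22) (adjusted p of 0.00196), with C2 at 8.49 and C5 at 8.17. All of these held with each animal left out. Of 11 tested bone genes, 7 were called higher and none lower, with a median of 0.64. Runx2, the master factor of bone-forming cells, differed by 0.74 (SE 0.15) (adjusted p of 0.0177), overlapped with the low animals, and was not called without C1 (0.169) or KO8 (0.167). Bone was the one skeletal tissue list in which all 3 high animals stood apart, with medians of 0.86 in C1, 0.52 in KO8 and 0.34 in C2 against at most 0.09 among the low animals.

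Cartilage genes as a list were high mainly in KO8. Their list median was 1.34 in KO8, 0.23 in C2 and 0.16 in C1, and 0.20 in the low animal C5. Of 15 tested genes, 2 were called higher, Col2a1, the main cartilage collagen, at 2.34 (SE 0.33) (adjusted p of 0.00326) and Col11a2 at 1.18 (SE 0.19) (0.00553). These were not high in KO8 alone. Col2a1 was 11.53 in C1, 12.26 in KO8 and 10.03 in C2, against at most 9.58 in the low animals. Col11a2 was 8.27 in C1, 9.03 in KO8 and 7.67 in C2, against at most 7.32. Both kept the call without KO8 (0.0253 and 0.026). Col9a1, a cartilage fibril collagen, was 6.37 in C1, 8.83 in KO8 and 6.66 in C2, with low animals from 6.02 to 6.47 with a median of 6.19. It was not called across the high group (adjusted p of 0.173), but the difference between genotypes in the high minus low difference was called: 2.67 among knockouts and 0.22 among controls, adjusted p of 0.000281. Matn4, a matrilin of cartilage, gave 2.96 and 0.54 (adjusted p of 0.00932). In all 10 features had a called difference of this kind, among them the cartilage genes Acan, Cnmd and Col9a3, named here after their values were seen. The high knockouts are 1 animal, KO8, scanned on days 1 and 2, and the high controls were scanned only on day 3. Genotype, animal and scan day therefore cannot be told apart in these values. The fit assumes that the lone high knockout varies like the other animals. The count was 54 without C1, 5 without C4 and 6 without C5 or without KO4, and KO8 could not be left out of this fit.

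**Figure D3:**
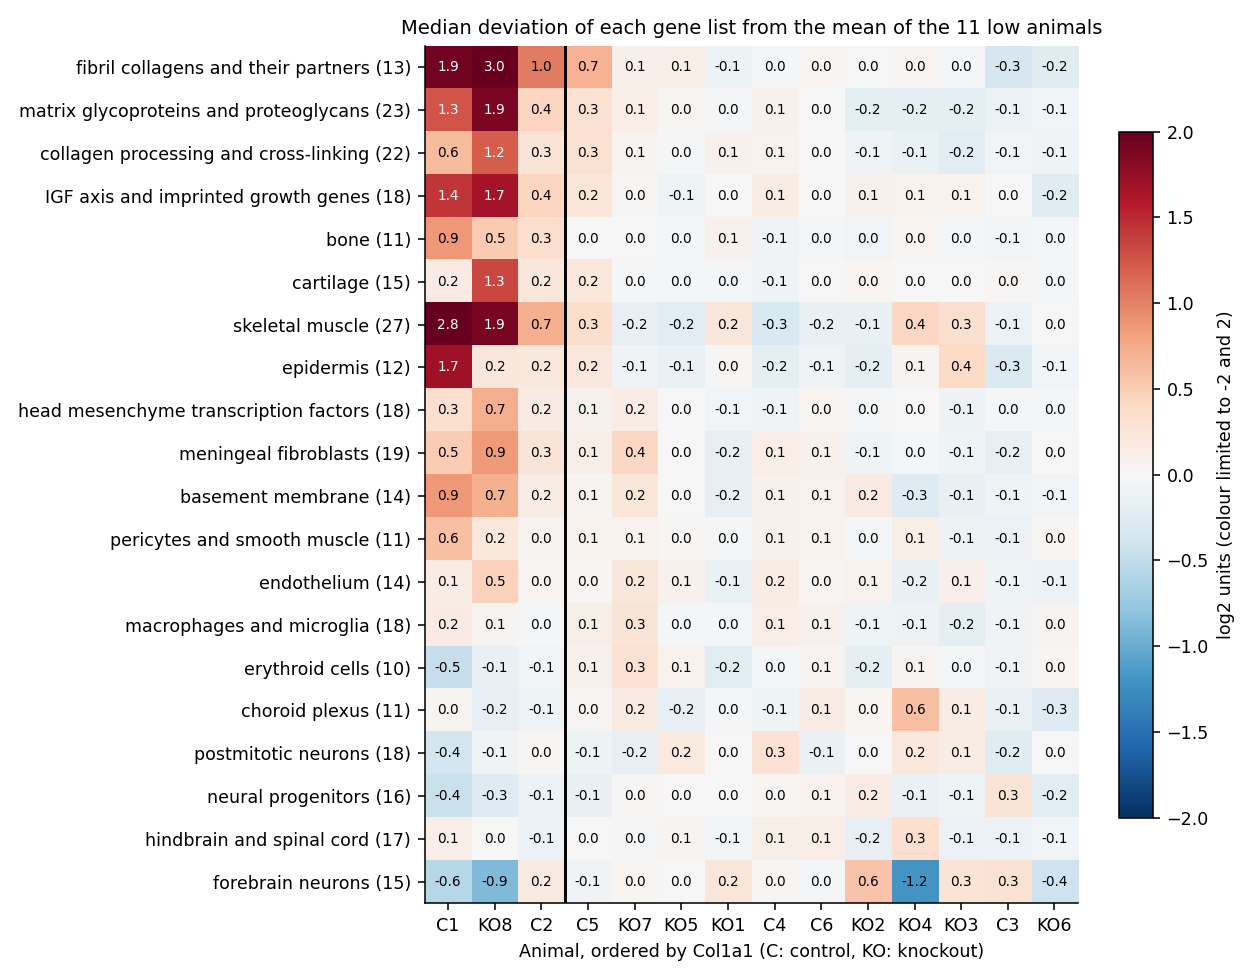
Median distance of each gene list (rows, number of tested genes in brackets) from the mean of the 11 low animals, in each E15 animal (columns, ordered by Col1a1), in log2 units. Collagen, IGF axis, bone and muscle rows are raised in C1, KO8 and C2, cartilage in KO8 and epidermis in C1, while forebrain neurons are lowest in KO4, KO8 and C1.

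Epidermal genes were high in C1. The list median was 1.70 in C1, 0.22 in KO8 and 0.21 in C2, against 0.40 in the low animal KO3. Krt15, a basal keratin, was 11.57 in C1, 8.71 in KO8 and 7.91 in C2, and 8.99 in KO4 and 8.57 in KO3. Krt5, the main basal keratin, was 11.46 in C1 and 8.31 in KO8, within the low range of 7.54 to 9.48. Neither was called, with adjusted p of 0.157 and 0.53. Of 12 tested genes 2 were called higher. Epcam, an epithelial adhesion gene, was one, at 1.10 (SE 0.26) (adjusted p of 0.0468), and lost the call without C1 (0.462), without KO8 (0.288) and without any of 9 low animals, all but C5 and KO3 (0.0654 to 0.0788). By list medians C1 therefore carried muscle, bone and epidermal genes together, KO8 muscle, bone and cartilage genes, and C2 a lower level of collagen, bone and muscle genes. The cartilage collagens Col2a1 and Col11a2 were above every low animal in each of C1, KO8 and C2.

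Genes of the meninges and of head mesenchyme differed less than those of matrix and muscle. Of 19 tested meningeal fibroblast genes, 3 were called higher and the median difference was 0.48. Foxc1, a factor needed for the meninges and skull, was 8.62 in C1, 9.25 in KO8 and 8.66 in C2, with a low range from 7.41 to 8.23 with a median of 7.74, and differed by 1.09 (SE 0.17) (adjusted p of 0.00426). Foxd1 differed by 0.99 (SE 0.20) (0.0179), with the call lost without C1 (0.108) and KO8 (0.175). The third was Igf2, which is also on the growth gene list. Aldh1a2, the retinoic acid enzyme of the meninges, was not called at 0.54 (SE 0.17) (adjusted p of 0.185), nor was S100a6, a marker of the pial layer, at 1.05 (SE 0.28) (0.0814). KO7, a low animal for Col1a1, had a meningeal median of 0.41, above C2 at 0.27 and below C1 at 0.51 and KO8 at 0.85. Of 18 tested mesenchymal transcription factors, 6 were called higher. Snai2 differed by 1.69 (SE 0.21) (adjusted p of 0.00194), Prrx2 by 1.36 (SE 0.22) (0.00564), Meox2 by 1.38 (SE 0.23) (0.00657) and Twist1 by 1.31 (SE 0.23) (0.00961). Without C1 the call was lost for Meox2 (0.052) and Twist1 (0.0995), and without KO8 for Twist1 (0.0798). In C2, Twist1 was 6.69, close to C5 at 6.60.

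Lists of other cell types gave at most 2 calls each, beside 1.59% of all features called higher and 0.0872% called lower. Of 14 endothelial genes none was called in either direction, with a median of 0.17, and Cdh5, the endothelial cadherin, differed by 0.76 (SE 0.20) (adjusted p of 0.0895). Pericyte and smooth muscle genes gave 1 call in 11, Pdgfrb, at 0.71 (SE 0.14) (adjusted p of 0.0199), which was lost without C1 (0.168) and KO8 (0.189). Macrophage genes gave 1 call in 18, with a median of 0.07. The call was Lyz2, a lysozyme of peripheral macrophages, at 1.09 (SE 0.17) (adjusted p of 0.00469). Csf1r, the receptor shared by microglia and macrophages, differed by 0.16. The macrophage genes Mrc1 and Pf4 differed by 0.51 and 0.32 and were not called (adjusted p of 0.488 and 0.920). Ganglion and Schwann cell genes gave 2 calls in 16, Pmp22 at 1.57 (SE 0.25) and Erbb3 at 1.33 (SE 0.23). Pmp22 and Erbb3 were called at adjusted p of 0.00518 and 0.00897, and not without C1 (0.066 and 0.0987) or KO8 (0.0647 and 0.0971). Erythroid genes (10 tested), pituitary genes (10), hindbrain and spinal cord genes (17), cell division genes (22), retinoic acid genes (13) and sex-linked genes (5) had no call, and their medians lay between -0.05 and 0.13. The eye list gave 1 call in 9, the angiotensin list 1 in 14, the immediate early list 1 in 10, the ribosomal protein list 1 in 69 and the choroid plexus list 1 in 11. These were Cryab, Enpep, Egr1, Rpl39l and Aqp1, all higher, none of them by more than 1.43. In the choroid plexus list 6 of the 11 genes were below 0. Ttr, transthyretin, the main secreted protein of the choroid plexus, was 7.21 in C1, 7.15 in KO8 and 8.51 in C2, with KO6 at 6.98 and the other 10 low animals between 8.34 and 10.13. Its difference of -1.50 (SE 0.51) was not a call (adjusted p of 0.242). Without C1 the calls of Cryab (0.271), Egr1 (0.14), Rpl39l (0.072) and Aqp1 (0.291) were lost, and without KO8 those of Cryab (0.158), Enpep (0.0738), Egr1 (0.139) and Aqp1 (0.328). The calls of Aqp1 and Cryab were also lost without C6 (0.0804 and 0.051), and that of Aqp1 without any of 8 other low animals, all but C5 and KO4 (0.0577 to 0.0826).

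Neural lists gave 1 call. Over all features 43.7% were above 0. Of 16 tested neural progenitor genes, 3 were above 0 and 13 below, and Hes5, a Notch target of radial glia, was called lower. It was 9.74 in C1, 9.97 in KO8 and 10.42 in C2, with low animals from 10.50 to 11.18 with a median of 10.96, at a difference of -0.86 (SE 0.16) (adjusted p of 0.0138). Without C1 its adjusted p was 0.161 and without KO8 0.108. Of 18 postmitotic neuron genes, 4 were above 0, 14 below, and none was called. Other genes called lower without overlap included Cntnap2, a neuronal adhesion gene, at -0.71 (SE 0.11) (adjusted p of 0.00426), Gse1 at -0.78 (SE 0.12) (0.00426), Ypel1 at -0.72 (SE 0.12) (0.0066) and Sall2, a transcription factor, at -0.67 (SE 0.09) (0.00267). Cntnap2 was 8.18 in C1, 8.19 in KO8 and 8.10 in C2, and the low animals ranged from 8.65 to 9.14 with a median of 8.83. Cntnap2, Gse1 and Sall2 kept the call with each animal left out, whereas Ypel1 lost it without KO8 (0.0685). Pdxp, 4930402H24Rik, Klhl35, Marchf9 and Prkar2b were called lower by 0.60 to 0.69, and each lost the call without C1 (adjusted p from 0.182 to 0.292) and without KO8 (0.0752 to 0.289). Besides, 4930402H24Rik and Klhl35 lost it without C2 (0.147 and 0.0748), and of these 5 genes Prkar2b alone kept it without each low animal. The number of lower calls was 11 without C6, 12 without C4, 13 without KO5, 35 without KO4 and 36 without KO3.

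Forebrain genes set the 3 animals apart from each other and picked out another animal. Dlx1, an interneuron factor, was 6.78 in C1, 6.98 in KO8 and 7.73 in C2. Of the low animals KO4 was lowest at 6.92, and the other 10 lay between 7.96 and 9.01. Its difference of -1.28 (SE 0.35) was not called (adjusted p of 0.0951). Neurod6, a cortical neuron factor, was 7.52 in KO8, 7.55 in KO4 and 6.87 in C1. The forebrain list median was -1.19 in KO4, -0.89 in KO8, -0.58 in C1, -0.41 in KO6 and 0.19 in C2. None of its 15 genes was called, 13 were below 0, and the median high minus low difference was -0.62. KO4, with the least forebrain signal, had the highest hindbrain and spinal cord median, 0.33, a choroid plexus median of 0.59 and an ordinary fibril collagen median of 0.03. The 3 animals of lowest Dlx1, Neurod6 and forebrain list median were thus C1 and KO8, with high Col1a1, and KO4, without it.

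The channels of a low animal did not always give the same muscle signal. KO1 was read beside C1 on 1 array and beside C6 on another, and its Myh3 signal was 9.22 and 6.40 on them. Its Acta1 signal was 8.52 beside C1 and 6.47 beside C6, and its Krt5 signal 9.25 and 8.34. C3 gave a Myh3 signal higher by 1.65 beside KO8 than beside KO2, and KO2 one higher by 0.30 beside C2 than beside C3. Over all 384 features called higher, the same animal read beside a high animal exceeded itself beside a low one by a median of 0.24 in KO1, 0.09 in KO2 and 0.07 in C3, while the medians over all features were -0.03, 0.02 and -0.01. KO4 and KO3, whose muscle medians were among the highest of the low animals, were read only beside C1 and C2. Leaving out every channel of a low animal beside a high one, which removes KO3 and KO4, gave 266 higher and 23 lower calls. Of the 384 and 21, 251 and 9 were among them. The 2 channels compared within KO1 and within KO2 also differed in dye, with Cy3 beside the high animal and Cy5 beside the low one, and those of C3 in scan day. KO5, read only beside the low animal C4, gave 6.18 for Myh3 in Cy5 on scan day 1 and 7.73 in Cy3 on day 2. For Acta1 it gave 6.39 and 7.28. Its Myh3 gap, near that of C3 and below that of KO1, was the widest among low animals read only beside low ones. In Cy5 and Cy3, Myh3 was 7.99 and 8.81 in C5, and 7.08 and 6.88 in KO6. It was 6.34 and 6.32 in C4, 6.22 and 6.29 in KO7, and between 6.10 and 6.47 in C6. The part of shared arrays, dye and scan day in these values was not tested.

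**Figure D4:**
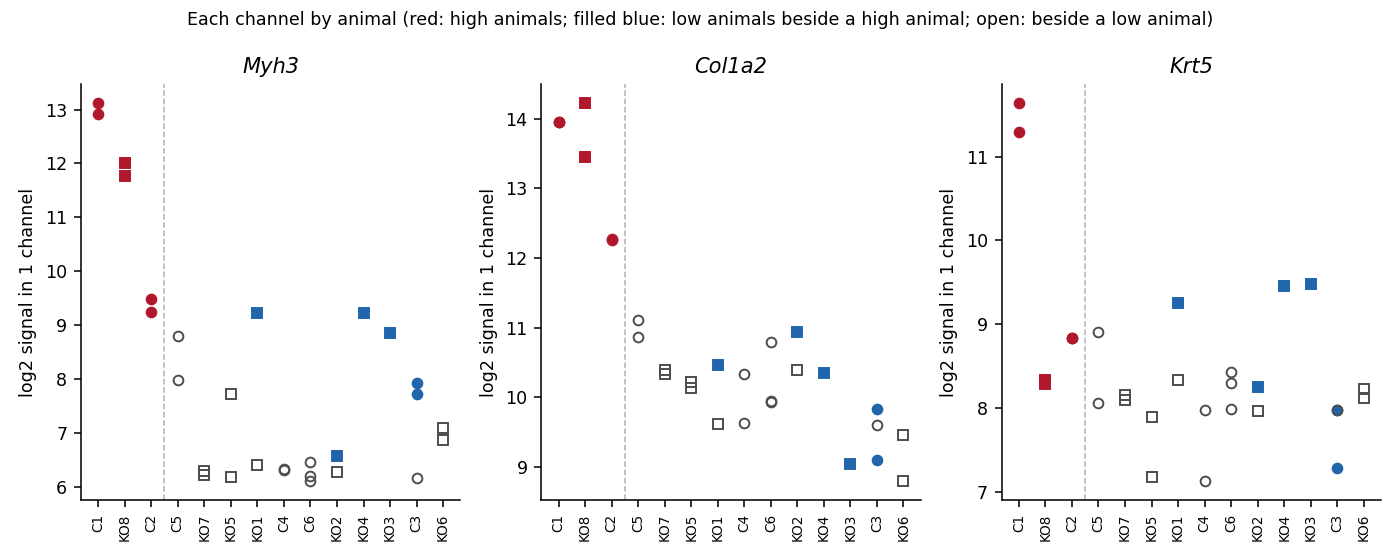
Log2 signal of Myh3, Col1a2 and Krt5 in every E15 channel, by animal in the order of Col1a1; red marks the high animals, filled blue low animals on an array with a high animal and open symbols low animals beside another low one. KO1 has 1 filled and 1 open square, at 9.22 and 6.40 for Myh3.

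Within arrays, the comparison does not depend on the scan day. The log2 ratio of each high animal over its low partners was above 0 in all 3 high animals for 378 of the 384 higher calls, and below 0 in all 3 for 21 of the 21 lower ones, beside 14.02% and 15.7% of all features. These ratios come from the same channels as the calls and only describe them. For Ibsp the ratios were 2.77 in C1, 3.36 in KO8 and 2.82 in C2, and for Col1a2 they were 3.54, 4.38 and 2.28. Tested against 0 over 3 animals they gave no call in either direction, with 1354 features higher and 1129 lower at an unadjusted p under 0.05 (limma). The authors' deposited log10 ratios, treated the same way, gave 358 higher and 23 lower calls.

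Within scan day 3, C1 and C2 against 6 low animals gave 20 higher calls and no lower one, with 1064 and 402 features at an unadjusted p under 0.05 (limma). Of the 20, 19 were also among the 384, and they included Ibsp, Spp1, Alpl, Lum, Mgp, Col5a1 and Col16a1. None of the 20 called muscle genes and 3 of the 11 called fibril collagen genes were among them. On that day Col1a2 differed by 3.03 (adjusted p of 0.133), Myh3 by 3.70 (0.448) and Acta1 by 3.02 (0.334), so their calls were lost. Within day 2, KO8 against 7 low animals gave 966 higher and 156 lower calls, and within day 1, KO8 against 3 gave 230 and 20. In the fits within days 1 and 2 the lone high animal is assumed to vary like the others. With scan day as a term the counts were 1153 and 208. The fibril collagen median was 3.14, 3.00 and 1.91 on days 1, 2 and 3. The muscle median was 2.21, 1.95 and 1.58, and the cartilage median 1.92, 1.38 and 0.31. The collagen and muscle medians were thus above 0 on every day, and the cartilage median was lowest on day 3, which did not hold KO8.

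**Figure D5:**
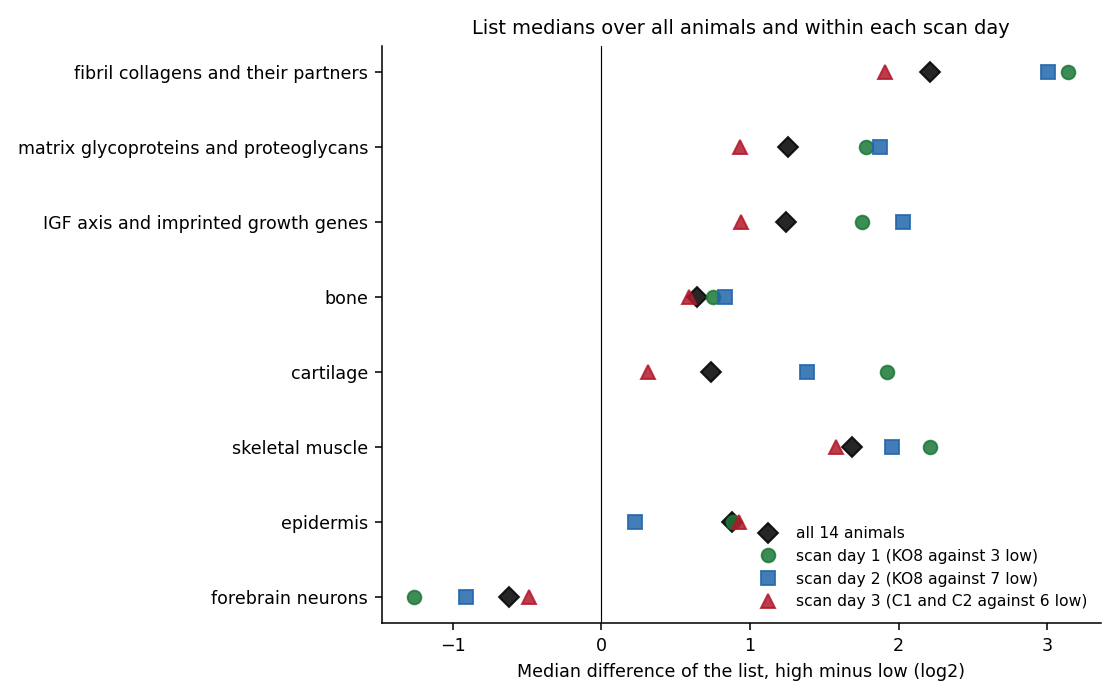
Median high minus low difference (horizontal axis, log2) of 8 gene lists over all 14 animals and within each scan day. Collagen, bone and muscle medians are above 0 on all 3 days, the cartilage median falls from 1.92 on day 1 to 0.31 on day 3, and the forebrain median is below 0 throughout.

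None of the 8 P1 brains, as counted above, reached the Col1a1 level of the 3 animals. On arrays of both ages normalized together, Col1a1 at P1 ranged from 8.25 to 9.50 with a median of 8.64, while the lowest of the 3 E15 animals was at 13.38 and the median of the other E15 animals at 9.64. Myh3 at P1 lay between 6.24 and 6.50 and Acta1 between 6.37 and 6.67. The P1 arrays were scanned on a day of their own, so age and scan day cannot be told apart in these values.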

How the data were processed

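RNA of 14 E15 animals was measured on 14 two-colour Agilent arrays, with 8 more arrays at P1. Per the file headers, the deposited files are Agilent Feature Extraction output with mean and background intensity per spot and colour, not normalized between arrays, and the deposited table holds the scanner software's log10 ratio of red over green, equal to that of the array files within 0.005. From the intensities, background was corrected by normexp (offset 50), dyes by loess and arrays by Aquantile in limma 3.58.1 (R 4.3.3), leaving out spots marked as outliers. The offset draws dim signals together, so differences of dim genes are understated. Channels were averaged per animal. Of 28939 features (the probe of highest mean signal per gene symbol, or a probe with no symbol), 24234 were well above background in at least 50% of the 28 E15 channels, and 24084 of these, Col1a1 left out, had a value in all 14 animals. Symbols came from RefSeq by accession, symbol or synonym. The high and low groups were compared with limma's lmFit and eBayes, no covariate, Benjamini-Hochberg adjustment over all features and a threshold of 0.05. Members and the 31 gene lists were chosen with earlier results of these data known, and so support nothing independently. Genes named are each list's first gene and its 4 tested members of largest difference, the 10 features furthest apart in each direction among non-overlapping calls, and Agtr2; some of these are not reported here. The number of arrays limits the precision. Alternatives changed the background correction, normalization, filter, probe choice, covariates, group size and animals. Animals linked by shared arrays served as a replicate block.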

Additional observations from a re-analysis of the deposited data

Results flagged for a closer look

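Within the 6 controls and the 8 knockouts, the gap of the highest or lowest animal to its neighbour, divided by the group's range, was compared with Dixon's 95% critical value, for each list median and for Agtr2. Chance alone flags about 1 in 20 groups; 21 of the 64 were past it here, and the extreme animal was C1 or KO8 in all but 1. Both were chosen for their Col1a1 values, so these gaps describe how far they stood off. In KO8 the ratio was 0.937 for cartilage, 0.891 for fibril collagens, 0.854 for matrix proteases and inhibitors, 0.843 for matrix glycoproteins, 0.828 for the IGF axis, 0.789 for collagen processing, 0.766 for bone, 0.707 for skeletal muscle, 0.686 for mesenchymal transcription factors, 0.587 for retinoic acid genes and 0.579 for TGF-beta and BMP genes. In C1 it was 0.849 for matrix proteases and inhibitors, 0.78 for immediate early genes, 0.753 for basement membrane, 0.746 for epidermis, 0.723 for Agtr2, 0.713 for pericytes and smooth muscle, 0.693 for the IGF axis and 0.664 for skeletal muscle, all as the highest control, and 0.702 for erythroid genes as the lowest. KO4 was the highest knockout for hindbrain and spinal cord genes, with a ratio of 0.554.

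The high minus low difference was larger among knockouts than among controls by 2.45 for Col9a1 and by 2.42 for Matn4. Both were called in the fit with an interaction term. The high knockout is 1 animal and shared no scan day with the high controls.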

How the results depend on the processing

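All 14 animals gave 384 higher and 21 lower calls and 10 for the difference between genotypes. Higher calls were outside 1.5 times that count with scan day as a term (1153), within scan days 1, 2 and 3 (230, 966 and 20), for ratios within arrays (0), for the 2 or 4 animals of highest Col1a1 (901 and 85), and, leaving out 1 animal at a time, ranged from 80 to 872. Lower calls were 12 from scanner processed signals, 3 without normalization between arrays, 13 with genotype as a term, 41 with the replicate block of linked animals, 208 with scan day, 156 and 0 within days 2 and 3, 0 for ratios within arrays, 92 and 3 for 2 or 4 animals, 53 with Col1a1 as a continuous term, and 5 to 91 leaving out 1 animal. With the replicate block, higher calls were 304, of which 256 were among the 384; the E15 and P1 replicate numbers name different animals and pair nothing. Calls for the difference between genotypes were 2 from processed signals, 3 without normalization between arrays and 5 to 54 leaving out 1 animal. KO8, the one high knockout, cannot be left out of that fit. Fits within days and on ratios hold fewer animals; the cause of the other shifts was not tested. Of 65 named genes called, 37 lost the call with 4 animals, 7 with 2, 65 for ratios within arrays, 19 for deposited ratios, 28, 11 and 53 of 63 within days 1, 2 and 3, 11 of 63 without shared channels and at most 7 under each change of signal, normalization, filter, probe choice or dye; none changed sign where a difference was given. Col1a1 as a continuous term gave counts only. Some list medians moved with the processing. The fibril collagen median was 2.21 with 1 probe per gene and 1.28 with all probes averaged. For the IGF axis these medians were 1.24 and 0.775, and for skeletal muscle 1.68 and 1.64. The bone median was 0.64, and 1.37 from scanner processed signals. Leaving out shared channels was chosen after seeing the data.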
